A study of Homo sapiens with 23 samples.

Results

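The chromatin binding of LSD1+8a was set against that of LSD1 in SH-SY5Y cells after 3 days of brain-derived neurotrophic factor (BDNF). All peaks of the 2 corresponding peak lists were taken, 3378 for LSD1+8a and 20748 for LSD1, which makes 24126 of the 52708 peaks in the 5 lists analysed here. SH-SY5Y, derived from a human neuroblastoma, matures towards a neuron-like state under retinoic acid and BDNF. The series examines LSD1, LSD1+8a, supervillin (SVIL, a cofactor of LSD1+8a by the design text) and a methylated form of histone H3 by chromatin immunoprecipitation and sequencing (ChIP-seq), in 23 samples of which 14 are immunoprecipitated and 9 are inputs. Both libraries compared here came from cells infected with a control shRNA. The labels' protocols describe retinoic acid at 10 µM for 4 days followed by BDNF at 50 ng/mL in serum-free medium for 3 days. Further readouts were taken from 3 more lists, each of 1 library: LSD1 at day 0 of BDNF in cells with the control shRNA, LSD1 at day 0 in cells with an shRNA against LSD1+8a (called knockdown cells here), and SVIL at day 3 in cells with the control shRNA. Positions refer to hg19, and genes are not named because an annotation of this build was not used here.

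LSD1 (KDM1A) is a flavin-dependent demethylase that takes methyl groups off lysines of histone H3. In most cells it sits in a corepressor complex with CoREST and histone deacetylases. Neurons splice an extra microexon, exon 8a, into part of their LSD1 transcripts. The resulting isoform, LSD1+8a, keeps the catalytic fold, and the title of the series links it to neuronal differentiation and to demethylation of histone H3 at lysine 9.

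Each antibody is represented by 1 library, so differences lack a replicate check and the antibodies could not be compared by a test. Intervals in parentheses are 95% intervals, exact binomial for shares, from order statistics for medians and exact Poisson for counts in windows. They cover counting error over peaks only, and neighbouring peaks are not independent. The sources used here do not give the number of reads per library. Tags, the reads assigned to a peak, summed to 149464 over the LSD1+8a peaks and to 1266603 over the LSD1 peaks and are not scaled to depth. A shorter list can therefore not be told apart from a shallower library or a weaker antibody. The LSD1+8a antibody recognises an isoform of the protein that the LSD1 antibody recognises, and cross-reaction of the LSD1 antibody with LSD1+8a was not tested. The input behind each list is not named, so peaks that both lists owe to an input were not told apart from binding.

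Peaks found at the same place in both lists differed from the rest mainly on the LSD1 side. A peak was called shared when a peak of the other list overlapped it by at least 1 bp, which held for 2012 LSD1+8a peaks (59.6% of that list) and 2011 LSD1 peaks (9.69%). The shares depend on how many peaks of each list are compared: between equal numbers of top-scoring peaks they were 22.1% for LSD1+8a and 21.9% for LSD1. The smallest overlap among shared peaks was 3 bp, and the nearest LSD1+8a peak outside an LSD1 peak lay 17 bp away. In bases, 1.72 Mb were covered by both lists, which is 57.03% of the 3.01 Mb under LSD1+8a peaks and 7.14% of the 24.1 Mb under LSD1 peaks. In tags, shared peaks held 61.4% of the LSD1+8a tags and 13.3% of the LSD1 tags.

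Shared LSD1 peaks were longer and taller than LSD1 peaks of 1 list. They spanned a median of 1190 bp, and the others 1031 bp, a ratio of 1.15 (1.13 to 1.18). Their median number of tags was 64 against 49, a ratio of 1.31 (1.27 to 1.38), and tags per kb of peak were 52.0 against 45.7. The median fold enrichment given by the authors' caller was 19.9 for shared LSD1 peaks and 17.05 for the others. Among LSD1+8a peaks the classes lay much closer together. Shared LSD1+8a peaks spanned a median of 850 bp and the 1366 LSD1+8a peaks without LSD1 797.5 bp, a ratio of 1.07 (1.03 to 1.11). Their median number of tags was 39 against 36, with an interval of the ratio from 1.0 to 1.14. Tags per kb were 44.0 in both classes, and the fold enrichment was 14.96 in shared and 15.5 in unshared LSD1+8a peaks. An LSD1+8a peak without LSD1 was thus about as dense in tags as one with it.

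**Figure D1:**
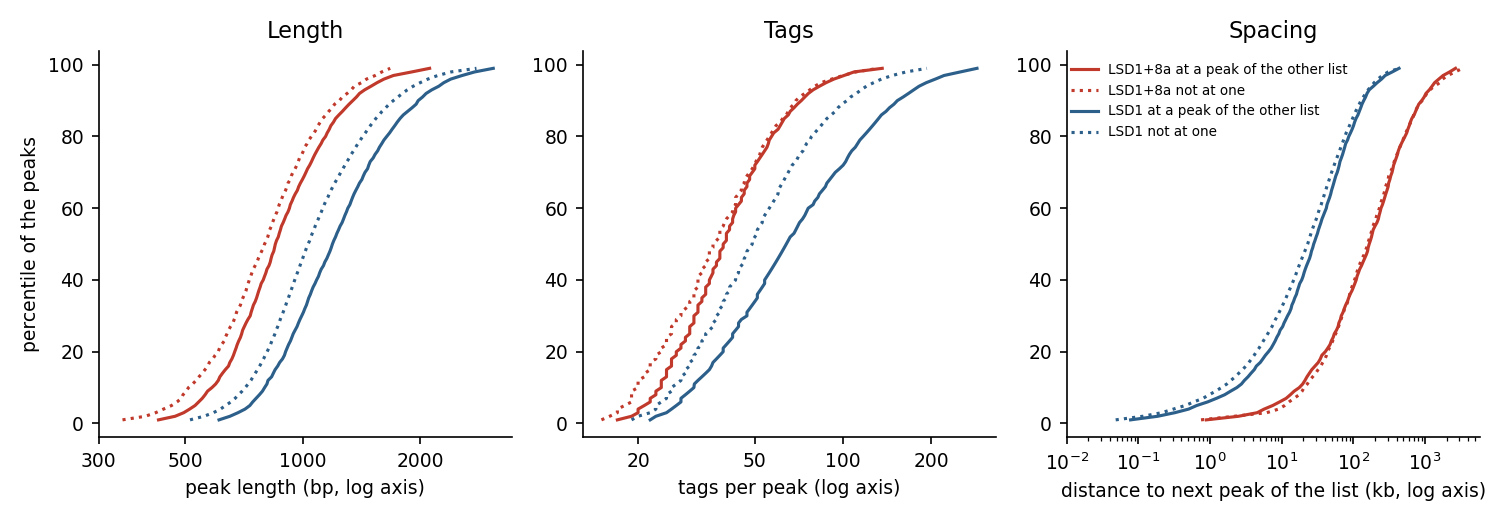
Percentiles of peak length in bp, tags per peak and distance in kb to the next peak of the same list, all on log axes, for LSD1+8a (red) and LSD1 (blue) peaks that overlap a peak of the other list (solid) or do not (dotted). The solid and dotted LSD1 lines stand apart in tags (medians 64 and 49), while the LSD1+8a lines run close together (medians 39 and 36).

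Long peaks have more room to overlap, and the share of shared peaks rose with length in both lists. From the shortest to the longest of 5 equal groups by length, the share of LSD1+8a peaks at an LSD1 peak was 47.4, 59.9, 61.9, 61.5 and 67.0%. The share of LSD1 peaks at an LSD1+8a peak was 5.95, 7.04, 8.89, 12.1 and 14.5%. From the shortest to the longest group, the share also rose on either side of each list's median score, within which scores still vary widely. Among LSD1 peaks scoring below the list's median the share went from 5.22% in the shortest group to 8.44% in the longest, and among those above it from 8.57% to 16.3%. For LSD1+8a the corresponding shares were 44.8% and 66.7% below the median score, and 54.9% and 67.2% above it. The rise was not steady. Among LSD1 peaks below the median score the fourth length group had 8.89%, more than the longest. Among LSD1+8a peaks above it the third group had 62.2% and the fourth 60.4%.

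Whether shared LSD1 peaks were the denser class depended on which peaks were compared. Within each of the 5 length groups they held more tags per kb than the others, 61.8 against 51.6 in the longest, whereas among peaks of like score they did so only in the highest decile. Within deciles of LSD1 score, shared LSD1 peaks were longer than the others in 9 of 10 deciles, but their tags per kb were lower in 9 of 10. In the seventh decile, where the lengths lay farthest apart, shared LSD1 peaks had a median of 1229.5 bp and 47.2 tags per kb. The others there had 1104 bp and 50.3 tags per kb. The highest decile went the other way in density, with 85.8 tags per kb in shared and 79.4 in unshared LSD1 peaks. For LSD1+8a the shared peaks of the highest decile were the less dense class, with 64.6 tags per kb against 81.2, and they were longer, with 1034 bp against 864 bp. The fold enrichment of shared LSD1+8a peaks was lower than that of unshared ones in 7 of 10 deciles.

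**Figure D2:**
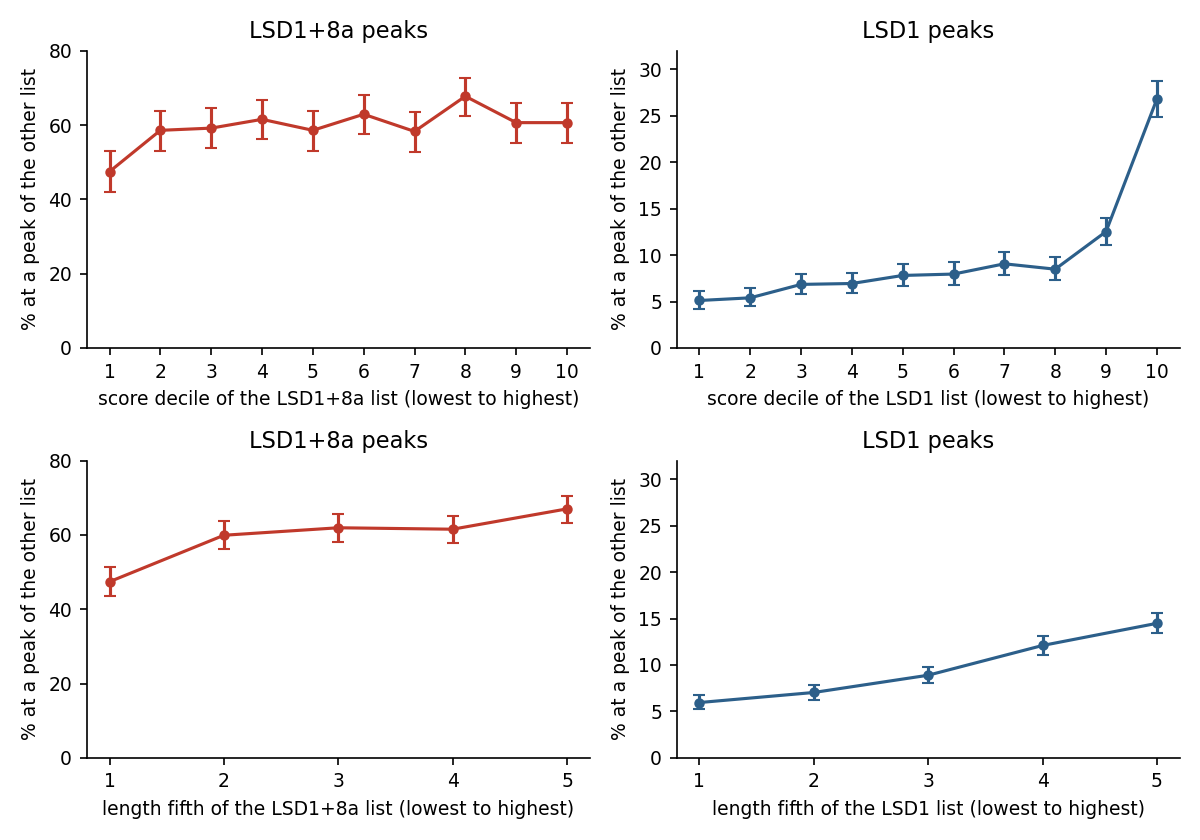
Share in percent of LSD1+8a peaks (left, red) and LSD1 peaks (right, blue) that overlap a peak of the other list, by score decile (top) and in 5 equal groups by length (bottom) of each list, with exact 95% binomial intervals. The LSD1 share climbs steeply in the highest score decile, to 26.8%, whereas the LSD1+8a share is lowest in the lowest decile, at 47.5%, and shows no such climb.

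The overlapping peaks formed 2018 pairs, of which 1992 (98.7%) joined 1 peak of each list to 1 of the other. The usual arrangement was an LSD1+8a peak nested within a longer LSD1 peak. In 1215 pairs (60.2%, 58.03 to 62.4) the LSD1+8a peak lay wholly inside the LSD1 peak, and in 74 (3.67%) the LSD1 peak lay inside the LSD1+8a peak. The remaining 729 pairs (36.1%) were staggered, 353 with LSD1+8a at the lower coordinate and 376 with LSD1 there. The median pair overlapped over 799 bp, which was all of the LSD1+8a peak and 69.7% of the LSD1 peak. LSD1 peaks extended past their LSD1+8a partner by a median of 146 bp on the left and 143 bp on the right, so the extra length was similar on both sides. The LSD1 peak was longer by a median factor of 1.37 (1.34 to 1.395), and the LSD1+8a peak was the longer one in 306 pairs (15.2%). LSD1 peaks were also longer over the whole lists, with a median of 1044 bp against 831 bp for LSD1+8a. The parts of this list-wide length and of depth in the nesting were not tested.

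Summits, the positions of highest signal, lay close together. The median distance between the LSD1+8a and the LSD1 summit of a pair was 86 bp (79 to 93), with quartiles of 35 and 213.75 bp. Summits were at most 50 bp apart in 704 pairs (34.9%) and at most 100 bp apart in 1110 (55.0%), and over 500 bp apart in 195 (9.66%). Sonicated fragments of 300 to 800 bp, as the labels' protocols give them, limit how finely a summit can be placed. The LSD1+8a summit lay inside the LSD1 peak in 97.3% of pairs, the LSD1 summit inside the LSD1+8a peak in 94.05%, and neither in 24 pairs. There was no common direction along the chromosome. The signed shift of LSD1+8a from LSD1 had a median of -5 bp (-10 to 2), with 1040 LSD1+8a summits at the lower coordinate and 971 at the higher.

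**Figure D3:**
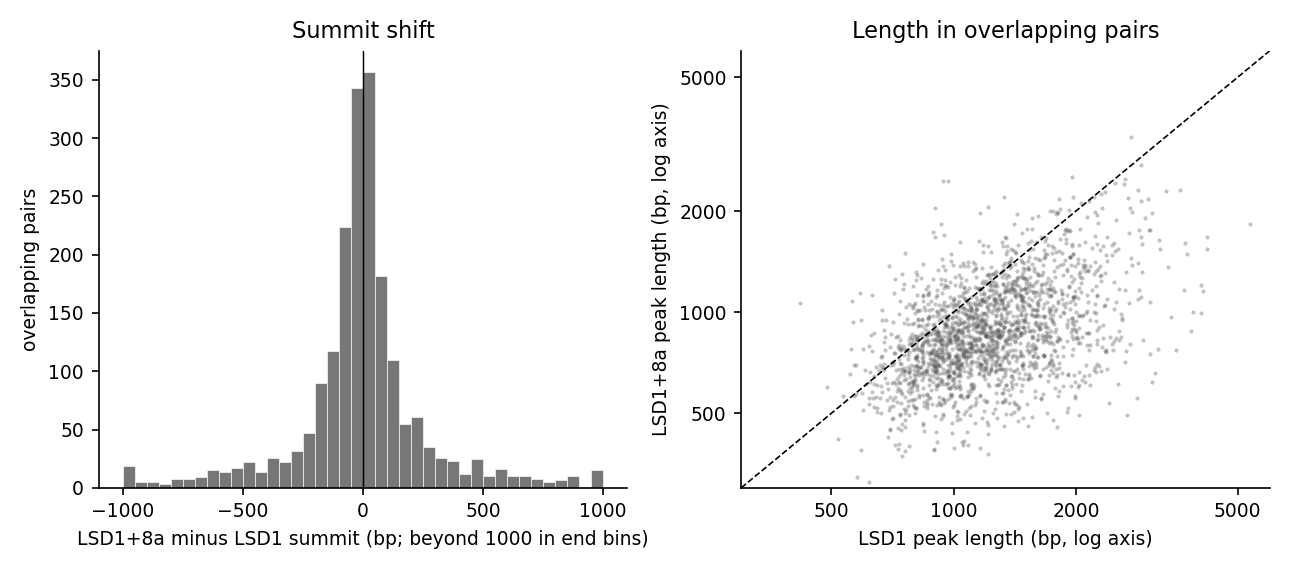
Left, number of overlapping pairs by the shift of the LSD1+8a summit from the LSD1 summit in bp, in bins with all larger shifts in the end bins. Right, length in bp of the LSD1+8a peak against that of the LSD1 peak in each pair, on log axes, with a dashed line at equal length; shifts centre near 0 (median -5 bp), and most points lie below the line.

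Summits lay farther apart in longer pairs, where there is more room between them, and the distances were not scaled to length. From the shortest to the longest of 5 groups by the length of the longer peak, the median distance was 63, 79, 95, 98.5 and 130.5 bp. Nested pairs had a median of 77 bp (69 to 83) and staggered pairs 106 bp (93 to 125). Over the deciles of LSD1 score the median showed no steady order. It was 105.5 bp (72 to 143) in the lowest decile. The extremes were 131 bp (97 to 176) in the seventh and 64 bp (56 to 71) in the highest. Pairs at a day 0 LSD1 peak of control cells had a median of 81 bp (73 to 90), and pairs away from one 96 bp (82 to 107), so these intervals overlap.

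The tags of paired peaks were only loosely related. LSD1+8a peaks of a pair held a median of 39 tags and LSD1 peaks 64, and the median ratio of LSD1+8a to LSD1 tags was 0.604 (0.583 to 0.627), with quartiles of 0.394 and 0.901. Since depth is unknown, a pair's ratio can be read only against this median. Over the 2018 pairs, Spearman's rho was 0.367 for tags, 0.427 for length, 0.158 for fold enrichment and -0.024 for score, given as a description because pairs share their chromatin and libraries. Pearson's r on the log2 scale was 0.411, 0.452, 0.155 and -0.023 for the same quantities. The score of a shared peak in one list was thus nearly unrelated to the score of its partner. Pairs in which LSD1 held at least 2 times the tags of LSD1+8a numbered 788 (39.0%), with a median LSD1 length of 1436 bp. Those in which LSD1 held at least 4 times the tags of LSD1+8a numbered 160 (7.93%), and their LSD1 peaks were long, with a median of 1807.5 bp. Pairs in which LSD1+8a held at least 2 times the tags of LSD1 numbered 40 (1.98%), with a median LSD1 length of 859.5 bp. Tags were summed over each peak's own span, so the lengths of the 2 peaks enter the ratio, and these groups were not matched for length.

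The pairs most weighted towards LSD1+8a joined leading LSD1+8a peaks to LSD1 peaks ranked from 6840 to 19572 of 20748. The highest ratio, 8.92, belonged to the LSD1+8a peak at chr17:80605824-80606757, the top-scoring one of its list. It held 214 LSD1+8a tags over 934 bp, and the LSD1 peak within it, at chr17:80605981-80606544, held 24 tags and ranked 17136 of 20748. Next came chr11:43333327-43334023 with 107 LSD1+8a tags against 19 LSD1 tags, and chr7:156930677-156932110 with 263 against 59. The latter has LSD1+8a and LSD1 peaks of almost the same span, 1434 and 1469 bp, and no peak in the other 3 lists. The peaks at chr1:42800695-42801505 (118 against 30 tags) and chr4:39459885-39461290 (211 against 57) complete the 5 highest ratios. In all 5 pairs the LSD1+8a peak ranked between 1 and 11 in its list.

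The pairs most weighted towards LSD1 consisted of a long LSD1 peak ranked from 10 to 156 in its list around a shorter LSD1+8a peak ranked from 986 to 2927 of 3378. At chr11:12341046-12341540, LSD1+8a had 22 tags and LSD1, over a 2038 bp peak, had 197, the lowest ratio at 0.112. At chr6:26045365-26046133 the values were 30 tags for LSD1+8a and 236 for LSD1, whose peak spanned 3535 bp. At chr3:72818671-72819673 they were 35 and 272, at chr9:14517036-14517879 they were 32 and 243, and at chr5:159546296-159547124 they were 30 and 226. The LSD1 peak at the last of these, chr5:159545950-159547616, ranked 10 in its list with a fold enrichment of 139. Tags were summed over each peak's own span, so the longer LSD1 spans enter these low ratios. Per kb, these LSD1+8a peaks held 34.9 to 44.4 tags and the LSD1 peaks around them 66.8 to 136. At chr11:12341046-12341540 the values were 44.4 and 96.7 tags per kb. The 10 pairs with the highest and lowest ratios were chosen for them, so the ratios are a description.

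**Figure D4:**
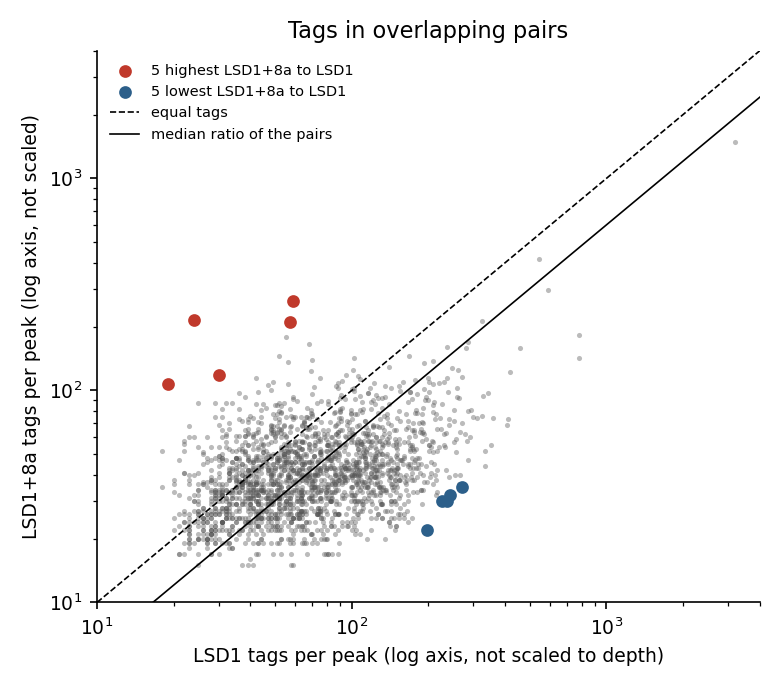
LSD1+8a tags against LSD1 tags per peak for the 2018 overlapping pairs, on log axes and not scaled to depth, with the 5 highest (red) and 5 lowest (blue) ratios marked. The cloud lies mostly below the dashed line of equal tags, around the solid line of the median ratio, 0.604, and widens in both directions.

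The 20 LSD1+8a peaks with the highest scores did not lie at the LSD1 peaks with the highest scores, a pattern not seen in longer top lists. Of these top 20 LSD1+8a peaks, 12 overlapped an LSD1 peak, and the overlapped LSD1 peaks ranked from 2301 to 19572 of 20748, with a median of 11330.5. None of them was in the top 10% of the LSD1 list. Among the top 50 LSD1+8a peaks 9 of 30 overlapped LSD1 peaks were there (30.0%), among the top 100 13 of 55 (23.6%), among the top 338 44 of 205 (21.5%) and over the whole list 561 of 2012 (27.9%). Beyond the regions already named, these 20 include chr19:57874199-57875092 (145 tags, LSD1 rank 5110), chr1:36689264-36690553 (165 tags, LSD1 rank 2902) and chr17:78120455-78121325 (178 tags, LSD1 rank 11899). The unshared ones include chr7:103847837-103848942 (184 tags), chr16:28833509-28834249 (133 tags, with a SVIL peak) and chr20:56963975-56964652 (96 tags). Among the top 20, 15 lay at a day 0 LSD1 peak of control cells and 18 at one of knockdown cells, which are the LSD1 lists of another day. Over all LSD1+8a peaks these shares were 60.9% and 52.4%. The count for the top 20 also depends on how strength is ranked. With both lists ranked by fold enrichment, 3 of the overlapped LSD1 peaks were in the top 10% of LSD1, and with tags per kb 7 were.

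The LSD1 peaks with the highest scores were mostly at an LSD1+8a peak. Of the top 20 LSD1 peaks by score 18 were shared, of the top 100 71, and of the top 338 179 (52.96%, 47.5 to 58.4). The share over all LSD1 peaks was 9.69%. Ranked by fold enrichment or by tags per kb, 14 of the top 20 were shared, and of the top 338 157 by fold enrichment and 124 by tags per kb. The LSD1+8a peaks at the top 20 ranked at a median of 485.5 of 3378, and 6 of them were in the top 10% of that list. The region that leads the LSD1 list, at chr21:9825316-9827962, had 3197 LSD1 tags and 1488 LSD1+8a tags but a low fold enrichment of 11.8 and 5.48, and its summits lay 1246 bp apart. Regions of high signal in any library were not removed here. Other regions high in both lists were chrX:130036887-130037647 (57 LSD1+8a and 149 LSD1 tags), chr17:73780148-73781872 (161 and 236), chr12:67662076-67663738 (145 and 168) and chr3:50329672-50330331 (66 and 164). The chromosome 12 pair was the closest match among them, with spans of 1663 and 1688 bp and summits 11 bp apart.

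Of the 5 longest LSD1+8a peaks 4 lay at an LSD1 peak, and of the 5 longest LSD1 peaks 1 lay at an LSD1+8a peak. The shares over each list were 59.6% and 9.69%, and in the longest of the 5 length groups 67.0% and 14.5%. Counts out of 5 are therefore a description only. The longest LSD1+8a peak, at chr7:16436322-16440300, spanned 3979 bp with 212 tags and lay 19387 bp from the nearest LSD1 peak, with no peak of the other 3 lists at it. The second longest, at chr7:133454891-133458221, held 213 LSD1+8a tags and overlapped an LSD1 peak with 326. It sits between the 2 longest LSD1 peaks, at chr7:133423731-133430091 (6361 bp, 542 tags) and chr7:133464535-133470499 (5965 bp, 749 tags), and neither of these is at an LSD1+8a peak. The LSD1 peak at chr4:174439975-174445339, 5365 bp long with 410 tags, surrounds an LSD1+8a peak of 1833 bp with 73 tags, and their summits lie 16 bp apart.

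LSD1+8a peaks were spread more thinly along chromosomes than LSD1 peaks. The median distance to the next peak of the list was 163352 bp among LSD1+8a peaks and 23514 bp among LSD1 peaks. The next peak was within 25 kb for 13.5% of LSD1+8a and 51.7% of LSD1 peaks. A list with fewer peaks has wider spacing, so these values are given as measured. Shared LSD1 peaks stood somewhat farther from the next LSD1 peak than unshared ones, with medians of 27949 and 23042 bp, a ratio of 1.21 (1.09 to 1.37). This held in 9 of 10 score deciles, and the exception was the highest, with 16824 bp for shared and 18803 bp for unshared LSD1 peaks. For LSD1+8a the medians were 166180 bp for shared and 158342 bp for unshared peaks, and the interval of their ratio ran from 0.900 to 1.27.

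Unshared peaks of either list were mostly not near misses. For the LSD1+8a peaks without LSD1, the nearest LSD1 peak was a median of 44592 bp away. It was within 1 kb for 40 of them (2.93%), within 10 kb for 218 (16.0%) and within 100 kb for 1039 (76.1%), and beyond 1 Mb for 4. The most isolated, at chrX:143749848-143750509 (33 tags), had no LSD1 peak within 5503788 bp. For LSD1 peaks without LSD1+8a the median distance to the nearest LSD1+8a peak was 258241 bp.

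LSD1+8a peaks among many LSD1 peaks were shared more often, and LSD1 peaks showed no such rise. Counting LSD1 peaks within 100 kb besides the overlapped ones, LSD1+8a peaks with no such neighbour were shared in 51.5% of cases (47.7 to 55.3), those with 1 to 2 in 56.7%, with 3 to 5 in 65.1% (61.9 to 68.2) and with 6 to 9 in 75.2% (69.4 to 80.4). LSD1 peaks with no other LSD1 peak within 100 kb were at LSD1+8a in 11.3% (10.2 to 12.5), against 8.73% of the remaining LSD1 peaks at the same score deciles. For LSD1 peaks with 3 to 5 neighbours the shares were 8.90% (8.24 to 9.60) and 10.5%, with 6 to 9 they were 9.17% (7.96 to 10.5) and 10.6%, and with 10 or more 9.94% (6.90 to 13.7) and 11.6%. The LSD1 share thus did not fall steadily with the number of neighbours. More LSD1 peaks nearby also leave more room for an overlap with LSD1+8a, and the part of this in the first relation was not tested.

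LSD1 peaks in closely spaced runs were shared about as often as LSD1 peaks at large. LSD1 formed 19 runs of at least 10 peaks with gaps of at most 25 kb, holding 210 peaks, of which 20 (9.52%, 5.91 to 14.3) were shared, against 9.69% of all LSD1 peaks. Peaks in these runs were longer than other LSD1 peaks, with medians of 1363 and 1042 bp, and had a higher median score. They were not matched for either. In 8 of the 19 runs none was shared. The longest run, at chr6:26156062-26286194, held 15 LSD1 peaks of which 4 were shared. The runs at chr17:55583131-55702390 (14 LSD1 peaks, 2 shared), chr10:72961438-73039596 (13, none shared) and chr3:128127600-128238158 (13, 1 shared) followed. LSD1+8a itself formed no run longer than 5 peaks. One of its 2 runs of 5 spans chr1:156678799-156743621, with 4 of 5 peaks shared and 64 to 158 tags per peak. The other spans chr2:47260066-47316786, with all 5 peaks shared and 71 to 109 tags per peak.

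In windows of 1 Mb, the lists occupied much of the same ground without always meeting. Of 2574 windows with a peak of either list, 1530 (59.4%) held both, 1021 held LSD1 peaks without LSD1+8a and 23 held LSD1+8a peaks without LSD1. In 367 windows with both there was no overlapping pair. LSD1+8a peaks became more frequent with the number of LSD1 peaks in a window, but less than in proportion. There were 22.5 LSD1+8a peaks per 100 LSD1 peaks in windows with 1 to 4 LSD1 peaks, and 13.1 per 100 in windows with at least 20. The window from 168 to 169 Mb of chromosome 5 held 38 LSD1 peaks (26.9 to 52.2) and 3 LSD1+8a peaks (0.619 to 8.77), all 3 shared. The window from 69 to 70 Mb of chromosome 7 held 37 and 5. Conversely, 44 windows held more LSD1+8a than LSD1 peaks. One at 80 to 81 Mb on chromosome 17 contained 12 LSD1+8a (6.20 to 21.0) and 9 LSD1 peaks (4.12 to 17.1), while chromosome 19 from 1 to 2 Mb had 11 and 8, with 7 of the 11 LSD1+8a peaks unshared. The window at 26 to 27 Mb on chromosome 6, which holds the longest LSD1 run, counted 12 LSD1+8a and 31 LSD1 peaks with 9 of each shared. It is a segment known for a large cluster of histone genes.

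The lists were distributed differently over the chromosomes. Chromosome 19, the most gene-dense human chromosome, held 5.27% of LSD1+8a peaks (4.54 to 6.08) and 2.33% of LSD1 peaks (2.13 to 2.55), a quotient of 2.26. On chromosome 16 the shares were 4.85% and 2.66%, and on chromosome 17 they were 6.36% and 3.86%. The LSD1+8a share was lower on chromosome 18, with 1.51% against 2.41%, on chromosome 13, with 2.13% against 3.20%, and on chromosome 4, with 3.55% against 5.01%. Of 23 chromosomes, Y left out, the intervals of the shares were apart for 11, with LSD1+8a above LSD1 on 5 (7, 14, 16, 17 and 19) and below it on 6 (3, 4, 5, 10, 13 and 18).

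The share of LSD1 peaks at LSD1+8a varied along with these quotients. With the share of LSD1+8a peaks at LSD1 similar on most chromosomes, the LSD1 share follows largely from the numbers of peaks and is no separate result. Of LSD1 peaks on chromosome 19, 20.9% (17.3 to 24.8) lay at an LSD1+8a peak, against 9.03% of LSD1 peaks on other chromosomes at the same score deciles. On chromosome 17 the share was 15.6% (13.2 to 18.3) against 9.26%, on chromosome 16 14.7% (11.8 to 17.9) against 9.52%, and on chromosome 18 5.01% (3.27 to 7.31) against 9.64%. On chromosome 14, also richer in LSD1+8a, it was 11.7% (9.04 to 14.9), an interval that includes the 9.66% of other chromosomes. The reverse share varied less. Of LSD1+8a peaks, 66.5% on chromosome 11 and 50.0% on chromosome 16 lay at an LSD1 peak, and the interval of the share excluded the value of the other chromosomes at the same score deciles on 2 of 23 chromosomes, 16 and X. So on chromosome 16 LSD1 peaks were shared more often, and LSD1+8a peaks less often, than elsewhere.

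**Figure D5:**
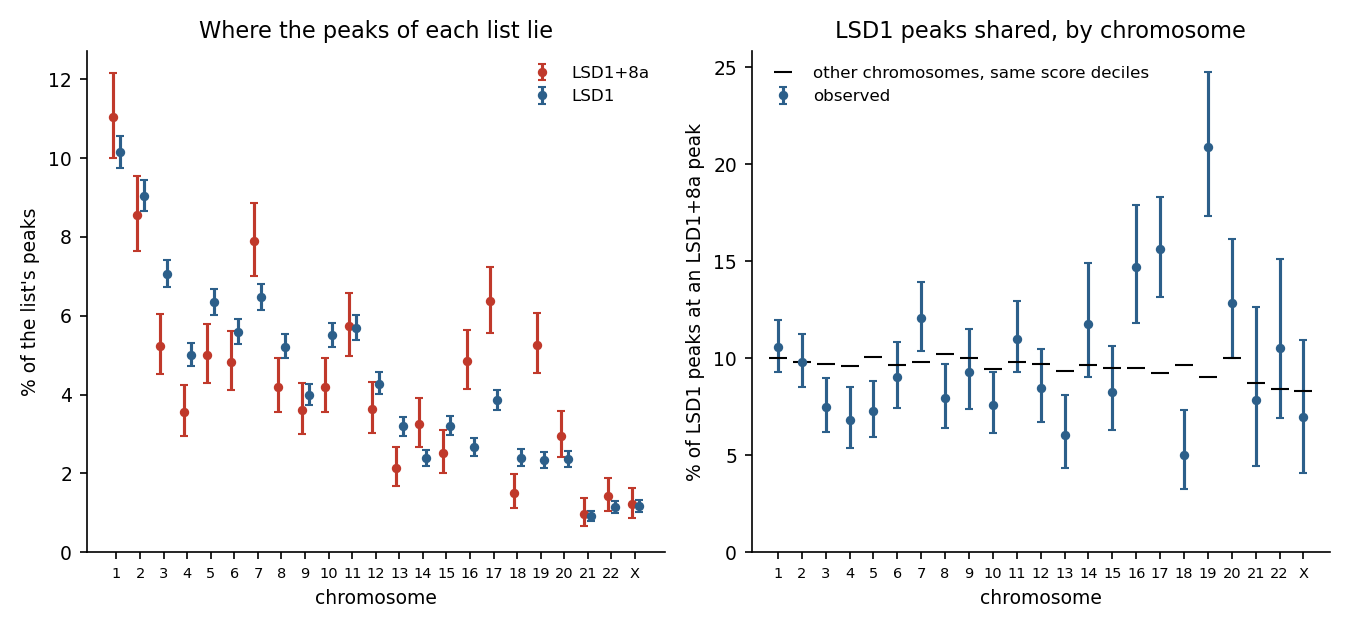
Left, percent of the peaks of the LSD1+8a (red) and LSD1 (blue) lists on each chromosome. Right, percent of LSD1 peaks on each chromosome that lie at an LSD1+8a peak, with black dashes for LSD1 peaks of the other chromosomes at the same score deciles; bars are exact 95% binomial intervals, Y is left out, and chromosomes 16, 17 and 19 stand above the dashes with 14.7, 15.6 and 20.9%.

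Of the 3 lists that did not enter the choice of peaks, those of day 0 control cells and of SVIL separated shared from unshared LSD1+8a peaks. The day 0 list of knockdown cells did not do so clearly. The lists hold 16882 peaks for day 0 control cells, 10248 for knockdown cells and 1452 for SVIL. A shorter list leaves fewer overlaps, so shares at different lists, here and for LSD1 peaks below, are not comparable with each other. Of all LSD1+8a peaks, 60.9% lay at a day 0 LSD1 peak of control cells, 52.4% at one of knockdown cells, 68.7% at either and 7.70% at a SVIL peak. For the day 0 control list the share was 67.2% (65.1 to 69.2) of shared and 51.6% (48.9 to 54.3) of unshared LSD1+8a peaks, and it was higher for shared peaks in 10 of 10 score deciles. For the knockdown list the values were 54.3% (52.1 to 56.5) and 49.6% (46.9 to 52.2), intervals that overlap slightly. Shared peaks were higher there in 7 of 10 deciles. The SVIL list separated the classes furthest in relative terms. A SVIL peak lay at 224 shared LSD1+8a peaks (11.1%, 9.79 to 12.6) and at 36 unshared ones (2.64%, 1.85 to 3.63), with shared peaks higher in 10 of 10 deciles.

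LSD1 peaks showed the same order. At matched score deciles their gaps were wider than those of LSD1+8a peaks for the day 0 lists and narrower for SVIL. Of all LSD1 peaks, 40.1% lay at a day 0 LSD1 peak of control cells, 22.2% at one of knockdown cells, 44.6% at either and 3.97% at a SVIL peak. For shared LSD1 peaks these shares were 67.6% for control cells, 54.7% for knockdown cells and 11.3% for SVIL. For unshared LSD1 peaks weighted to the same score deciles they were 46.7, 24.9 and 5.13%. Unshared LSD1+8a peaks weighted in this way had 53.4, 51.4 and 2.79%. Without weights, unshared LSD1 peaks had 37.1, 18.8 and 3.18%, which leaves a SVIL gap close to that of LSD1+8a peaks. Shared LSD1 peaks were higher in 10 of 10 deciles for each of the 3 lists. An LSD1 peak at an LSD1+8a peak was therefore found more often in the LSD1 list of day 0, before the 3 days of BDNF, than an LSD1 peak of similar score without LSD1+8a, in control and in knockdown cells alike. Scores within a decile and peak lengths were not matched in these shares.

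The LSD1+8a peaks without day 3 LSD1 differed in length and tags with their presence at day 0, while fold enrichment was slightly lower in the longer group. The 541 (39.6%) found in both day 0 lists had a median length of 867 bp, 46 tags and a fold enrichment of 15.2. The 525 (38.4%) found in neither had a median length of 696 bp, 27 tags and a fold enrichment of 15.5. Of the former 7.58% lay on chromosome 19, and of the latter 3.24%. Shared LSD1+8a peaks were arranged alike in length and tags, but their fold enrichment was higher in the longer group. The 966 in both day 0 lists had medians of 880 bp, 45 tags and a fold enrichment of 15.1, with 8.49% on chromosome 19. The 534 in neither had 798 bp, 33 tags and a fold enrichment of 14.3, with 0.936% there. In each class, then, LSD1+8a peaks at a day 0 LSD1 peak of both control and knockdown cells were longer and held more tags than those at neither. They also had the higher median score, and more of them lay on chromosome 19. Longer peaks have more room to overlap a day 0 peak, and these groups were not matched for length or score. The differences in length and tags are therefore a description only.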

How the data were processed

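Chromatin of formaldehyde-fixed cells was sonicated, immunoprecipitated and sequenced as single-end reads, per the labels' protocols. The submitters' processing notes list CASAVA and Bowtie 1.0.0. They also name a human and a mouse build, and the lists were read as hg19 because they hold chromosomes 20 to 22. The sources used here name neither the peak caller and its threshold nor the inputs. The authors deposited 1 peak list per library, with start, end, length and summit offset in bp. Tags per peak were deposited as a raw count in whole numbers. Fold enrichment is the deposited ratio from the authors' caller. The deposited score has lost its column name, and was used only to rank peaks within a list.

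From these, overlaps of at least 1 bp, exact (Clopper-Pearson) 95% binomial intervals, exact Poisson intervals and order-statistic intervals of medians were computed with Python 3.11.15, NumPy 2.4.6, pandas 2.3.3 and SciPy 1.17.1. A ratio of medians has the quotients of the opposite interval ends as bounds. Score deciles and 5 length groups were formed within each list. A share at the same score deciles weights the deciles of the comparison peaks as in the peaks described. The code was tested on simulated data. Named regions are the top ones by rank in both lists, by score without overlap, by tag ratio (1 peak to 1 peak, at least 50 tags together), by length, isolation, run and window. Windows with the most unshared LSD1+8a peaks, peaks of the top 20, and chromosome parts were chosen after their values were seen. The members and lists were chosen with earlier results of these data known. Shares at promoters were not computed, since the gene table given does not share the peaks' build.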

Additional observations from a re-analysis of the deposited data

How the results depend on the processing

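No paired analysis was possible because each group is 1 library. Of 61 alternatives over 12 results, 42 stayed within the 95% interval of the reported value and 19 moved outside it, and no called value changed direction. The share of LSD1+8a peaks at LSD1 was 48.5% with an overlap of at least 50% of both peaks, 40.6% in the upper 50% of each list by score and 22.1% when equal numbers of top-scoring peaks were taken. For LSD1 peaks at LSD1+8a these settings gave 7.90, 6.59 and 21.9%. Edges at most 1 kb apart gave 10.3% for LSD1. With an overlap of at least 50%, the ratios of shared to unshared medians were 1.13 in length and 1.17 in tags for LSD1+8a, and 1.08 and 1.22 for LSD1. In the upper 50% by score the LSD1 length ratio was 1.09 and the LSD1+8a tag ratio 0.938, below 1, while the reported interval of the latter began at 1.0. The share at a day 0 LSD1 peak was 57.25% of unshared and 71.0% of shared LSD1+8a peaks with an overlap of at least 50%, and 67.1% of shared ones in the upper 50%. The cause of these shifts was not tested, beyond the fewer peaks or overlaps that each setting leaves by construction.

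Added after the data were seen were other rankings of strength and leaving out chromosome 7 and the parts of chromosomes 1, 2 and 17 with the longest peaks. Of the LSD1 peaks overlapped by the 338 strongest LSD1+8a peaks, 21.5% were in the top 10% of LSD1 by score and 34.3% by tags per kb. Without the chromosome parts, 8.97% of LSD1 peaks were at LSD1+8a, and the LSD1 length ratio was 1.12. Shares at promoters were planned and not run, because no annotation of the build was used. With depth unknown, a peak missing from a list is not shown to be unbound.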

Other observations

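The same 5 parts of chromosomes had the longest peaks in both lists, though the order of the other parts differed. Chromosomes were split at their widest gap between peaks, and 39 parts had at least 20 LSD1+8a and 100 LSD1 peaks, a division chosen after values were seen. The 5 parts with the longest LSD1+8a peaks were also the 5 with the longest LSD1 peaks and the 5 with the most tags per peak in either list. Below these the lists went apart, and the higher part of chromosome 19 stood at place 6 by length for LSD1+8a and 34 for LSD1. They were both parts of chromosome 7, the part of chromosome 1 and of chromosome 17 with the higher coordinates, and the part of chromosome 2 with the lower coordinates. On the lower part of chromosome 7 the medians were 1060.5 bp (920 to 1161) for LSD1+8a and 1296.5 bp (1233 to 1355) for LSD1. On chromosome 1 LSD1+8a medians were 996 bp and 48 tags in the higher part, against 818 bp and 39 tags in the lower. LSD1 medians there were 1272 bp and 68 tags against 1005 bp and 47 tags. On chromosome 2 LSD1+8a had 978 bp and 51 tags in the lower part and 819.5 bp and 36 tags in the higher, and LSD1 had 1191 bp and 63 tags against 990 bp and 45 tags. LSD1 peaks were at an LSD1+8a peak in 13.3% of cases in the higher part of chromosome 1 and 7.82% in the lower, and in 12.4% in the lower part of chromosome 2 and 7.77% in the higher. On chromosome 17 the order of the shared LSD1 peaks was the other way round, with 14.3% in the part with the longer peaks and 21.3% in the other. SH-SY5Y is known to carry extra copies of chromosome 7 and of segments of chromosomes 1, 2 and 17. Copy number was not measured here, and its part in these values was not tested.

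A few peaks of one list covered several of the other. The LSD1 peak at chr20:26188532-26190791, with 780 tags, lay over 2 LSD1+8a peaks with 142 and 182 tags. Altogether 7 LSD1 peaks each lay over 2 LSD1+8a peaks, and 6 LSD1+8a peaks each lay over 2 LSD1 peaks.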
